A study of Rattus norvegicus with 9 samples.

Results

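The genes described here are 10 members of the interleukin 6 (IL-6) cytokine family pathway, of 14506 genes tested: the ligands Lif, Il6, Il11 and Clcf1, the receptor chains Lifr, Il6st, Il6r and Osmr, the transcription factor Stat3 and its inhibitor Socs3. They were taken by symbol from the array's probe table, where each had 1 entry, so all 10 were measured. The cells were pancreatic stellate cells, the matrix-producing fibroblast-like cells of the pancreas, isolated from male Sprague Dawley rats on a Nycodenz density gradient and kept for 72 hours in IMDM with 10% foetal bovine serum. They were grown in 10 cm dishes on Matrigel, a laminin-rich basement membrane extract (2 arrays), on collagen I, a fibrillar collagen abundant in scars (3 arrays), or on plastic (4 arrays). All groups share the strain, sex, medium, serum and time. The ages of the rats, and whether arrays came from separate animals or pools, are not given in the labels, so the p-values rest on the spread between arrays alone, which may be technical. Sample titles carry a letter that the labels leave undefined: Matrigel arrays carry A and S, collagen arrays A, P and Z, and plastic arrays A, P, S and Z. Arrays are named below by surface and letter, and values are always listed in that alphabetical order.

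Cytokines of the IL-6 family signal through receptor complexes that share the chain gp130, encoded by Il6st. IL-6 and IL-11 first bind their own alpha receptors, LIF pairs gp130 with the LIF receptor, and oncostatin M can pair gp130 with the oncostatin M receptor. The complexes activate JAK kinases, which phosphorylate STAT3, and STAT3 induces SOCS3, which shuts the receptor down. In the pancreas, LIF and IL-6 are known as products of activated stellate cells and fibroblasts that act on neighbouring epithelial cells.

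Values are log2 expression levels as deposited, so a difference of 1 is a doubling. A gene was counted as changed when its adjusted p in limma, corrected over all 14506 genes, was under 0.05. The levels of different genes cannot be compared on these arrays, and only differences of the same gene between surfaces are read. Array medians lay between 4.08 and 4.18. Over all genes, Pearson's r was 0.991 to 0.996 within a surface and 0.975 to 0.989 between surfaces. Means under log2 4.25, the 40th percentile of all genes, are called dim, and no member had a dim mean on any surface. Of 19 tested stellate cell markers, 4, 3 and 2 were dim on Matrigel, collagen I and plastic, and the collagen I chain genes Col1a1 and Col1a2 averaged 12.50 to 12.88 on all surfaces. Markers of other cells were present too. The mean over 22 macrophage markers was 7.25 to 7.54 on Matrigel, 6.12 to 6.96 on collagen I and 6.16 to 7.19 on plastic, and that over 14 islet markers was 6.13 to 7.22, 5.12 to 5.72 and 4.90 to 5.69. Of 11 lymphocyte markers 10 were dim on every surface. In such whole-dish RNA, fewer cells of a type and less RNA per cell cannot be told apart.

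Sequences just upstream of the annotated gene start were at hand for 8 of the 10 members, all but Lif and Clcf1. Those of Il6 and Il11 are shown because both ligands were higher on both matrices. They are the 250 bases before the start in RefSeq's GRCr8 build, 5′ to 3′ on the gene's strand. Capitals mark matches to 6 motifs searched on both strands: STAT (TTCNNNGAA), AP-1 (TGANTCA), CRE (TGACGTCA), NF-kB (GGG, any 2 bases, then TTTCC), CEBP (TTGCNNAA) and the GC box (GGGCGG). The Il6 stretch is chr4:5894576-5894825 on the minus strand and the Il11 stretch is chr1:78098372-78098621 on the plus strand.
Il6: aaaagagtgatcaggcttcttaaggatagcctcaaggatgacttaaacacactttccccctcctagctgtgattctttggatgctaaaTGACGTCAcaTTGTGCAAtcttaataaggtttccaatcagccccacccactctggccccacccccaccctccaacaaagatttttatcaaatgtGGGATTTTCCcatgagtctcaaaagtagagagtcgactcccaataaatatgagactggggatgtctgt
Il11: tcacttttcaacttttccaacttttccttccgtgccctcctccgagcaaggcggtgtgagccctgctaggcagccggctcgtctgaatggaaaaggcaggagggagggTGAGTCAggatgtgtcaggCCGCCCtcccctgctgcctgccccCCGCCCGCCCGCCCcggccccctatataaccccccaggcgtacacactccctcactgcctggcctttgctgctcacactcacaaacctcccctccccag
The Il6 stretch held a CRE match 162 to 155 bases upstream of the start, a CEBP match at 152 to 145 and an NF-kB match at 68 to 59. Of 33469 promoter stretches of this length, 1.59% held a CRE match, 9.22% a CEBP match and 1.30% an NF-kB match. The Il11 stretch held an AP-1 match at 142 to 136 bases upstream, which 6.34% of all stretches had, and 4 GC box matches, the last 3 of them overlapping, where 30.47% of stretches had at least 1. Osmr also held an AP-1 match, at 33 to 27 bases upstream. The STAT letters, present in 7.67% of stretches, were in none of the 8 windows, and bases outside these windows were not searched. A match describes these letters and is not a shown binding site.

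All 4 ligand genes read higher on either matrix than on plastic on every array. On Matrigel all 4 rose, by 7.38-fold for Lif and by 1.78-fold to 2.22-fold for the others. On collagen I Lif, Il11 and Il6 rose 15.7-fold, 4.40-fold and 3.78-fold, while Clcf1 missed the threshold. Of the 10 members, 4 rose and 2 fell on Matrigel, where 10.4% of all genes changed (4.52% rose and 5.85% fell). Of all genes 655 rose and 849 fell there, or 512 and 1036 with each array re-centred on its median. On collagen I 3 rose and 2 fell, where 6.12% of all genes changed (2.95% rose and 3.17% fell). Between the matrices 2 members changed, Lif and Il11, both lower on Matrigel, where 2.67% of all genes changed (1.21% higher and 1.45% lower on Matrigel). Of all genes 176 were higher and 211 lower on Matrigel, or 122 and 259 after re-centring. The median difference of the 4 ligands was 1.00 on Matrigel and 2.03 on collagen I against plastic, beside -0.01 and 0.00 for all genes. Both comparisons with plastic use the same 4 plastic arrays and are not independent of each other.

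**Figure D1:**
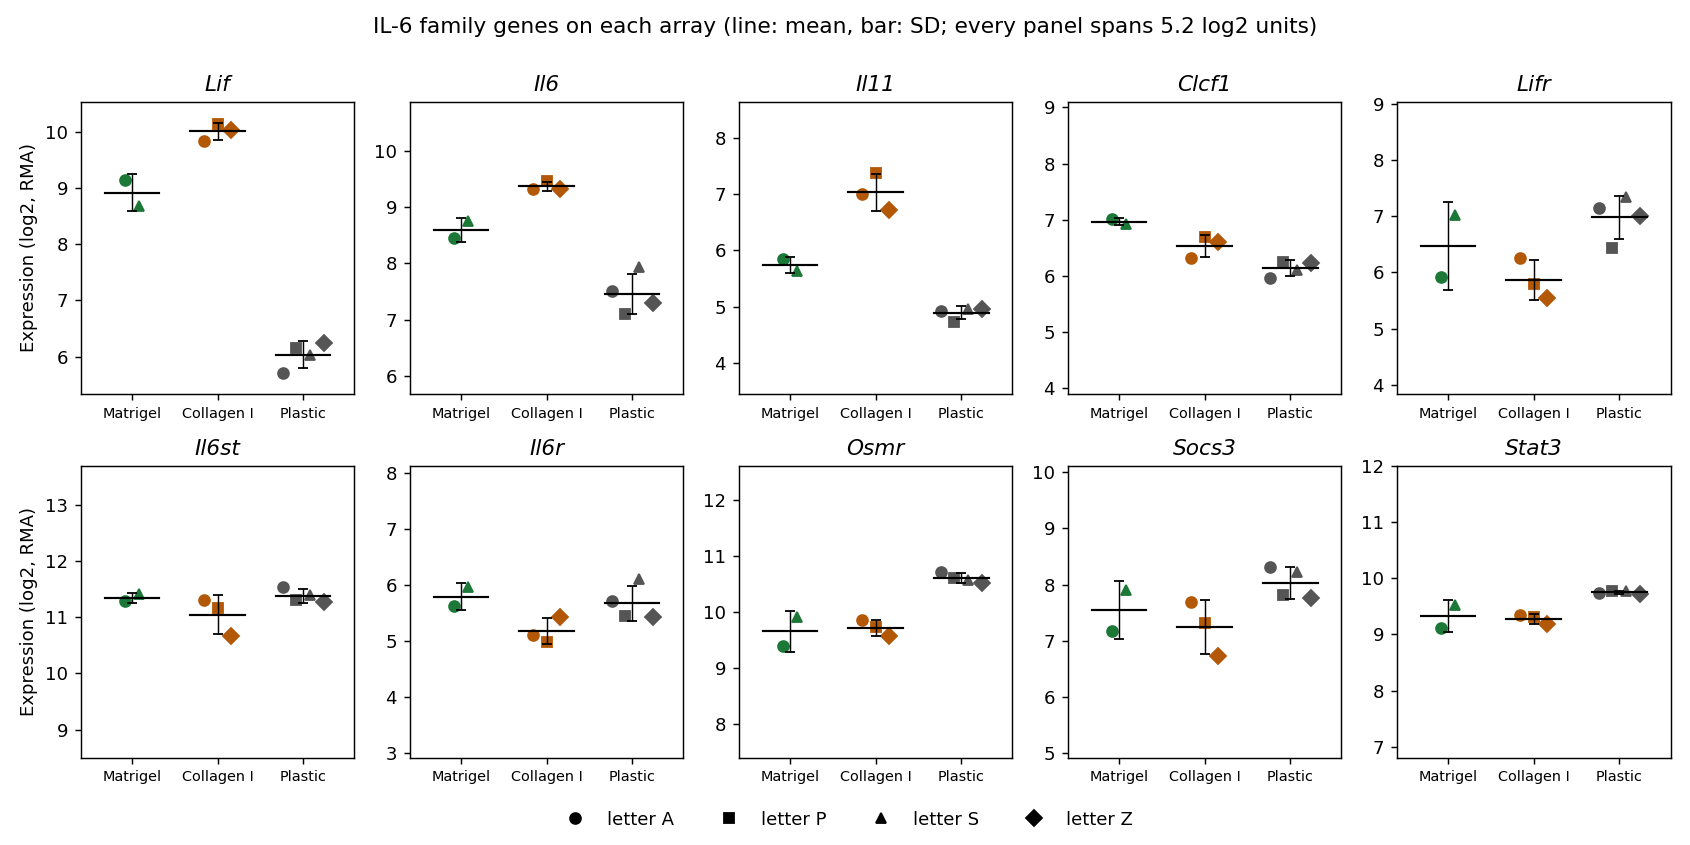
Expression (log2) of the 10 members on each array, by surface (Matrigel, collagen I, plastic), with the mean as a line, the SD as a bar and the title letter as the symbol. The Lif points lie between 8.68 and 9.15 on Matrigel and between 9.84 and 10.14 on collagen I, all above the plastic points at 5.71 to 6.25, whereas the Osmr and Stat3 points on both matrices lie below those on plastic.

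Lif (Entrez gene 60584) encodes leukaemia inhibitory factor. Its level was 9.15 and 8.68 on Matrigel, 9.84, 10.14 and 10.04 on collagen I, and 5.71, 6.16, 6.02 and 6.25 on plastic. The 3 surfaces did not overlap, with collagen I highest and plastic lowest. The rise over plastic was 2.88 ± 0.18 (log2, SE) on Matrigel (adjusted p = 0.000159), where Lif had the 14th highest difference of all genes by rank, and 3.97 ± 0.16 on collagen I (adjusted p = 1.76e-05), where it ranked 1 of 14506. The 95% intervals ran from 5.56-fold to 9.79-fold and from 12.2-fold to 20.2-fold. Within title letters the difference between Matrigel and plastic was 3.45 for A and 2.66 for S, and that between collagen I and plastic was 4.13 for A, 3.99 for P and 3.79 for Z. Lif was 1.09 ± 0.19 lower on Matrigel than on collagen I (adjusted p = 0.0259). That last call was lost with only those arrays in the fit (adjusted p = 0.136). It was lost with the title letter as a fixed block (0.135), though not as a random block. It was also lost without collagen array P or Z or Matrigel array S.

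Il6 (Entrez gene 24498), the gene of interleukin 6 itself, read 8.45 and 8.75 on Matrigel, 9.32, 9.46 and 9.33 on collagen I, and 7.50, 7.09, 7.93 and 7.30 on plastic. The order of the surfaces was that of Lif, with no overlap, and the SD was 0.08 on collagen I and 0.36 on plastic. It rose by 1.15 ± 0.20 on Matrigel (adjusted p = 0.00986) and by 1.92 ± 0.18 on collagen I (adjusted p = 0.000667), ranks 183 and 42 among the highest differences. The within-letter differences were 0.95 and 0.82 on Matrigel and 1.82, 2.38 and 2.04 on collagen I. Matrigel and collagen I differed by -0.77 ± 0.22, which did not pass (adjusted p = 0.113). The rise on Matrigel did not pass without Matrigel array S (adjusted p = 0.0694).

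Il11 (Entrez gene 171040) encodes interleukin 11, a cytokine made by fibroblasts. It read 5.84 and 5.64 on Matrigel, 7.01, 7.37 and 6.72 on collagen I, and 4.93, 4.72, 4.96 and 4.96 on plastic, again with 3 separate ranges. Against plastic it rose by 0.85 ± 0.17 on Matrigel (adjusted p = 0.0144) and by 2.14 ± 0.15 on collagen I (adjusted p = 0.000197), ranks 365 and 31 among the highest differences. It was 1.29 ± 0.17 lower on Matrigel than on collagen I (adjusted p = 0.0138). The within-letter differences from plastic were 0.91 and 0.68 on Matrigel and 2.08, 2.65 and 1.75 on collagen I. The rise on Matrigel was lost with the title letter as a fixed block (adjusted p = 0.0561) and without Matrigel array A. The difference between the matrices was lost with only those arrays in the fit (0.136), with the fixed block (0.0834) and without Matrigel array S. Both calls were kept with the letter as a random block.

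Clcf1 (Entrez gene 365395) encodes cardiotrophin-like cytokine factor 1, a ligand of the ciliary neurotrophic factor receptor. It read 7.02 and 6.92 on Matrigel, 6.32, 6.69 and 6.61 on collagen I, and 5.96, 6.25, 6.11 and 6.24 on plastic. Unlike Lif, Il6 and Il11, its highest arrays were those on Matrigel. It rose by 0.83 ± 0.12 on Matrigel (adjusted p = 0.00443), a call kept under all 19 alternatives run. On collagen I it differed from plastic by 0.40 ± 0.11 (adjusted p = 0.0708). It passed there under 5 of 19 alternatives, with an adjusted p of 0.0472 with the title letter as a replicate block, and reached 0.229 under others. The difference of 0.43 ± 0.13 between Matrigel and collagen I did not pass (adjusted p = 0.135), so the neighbours in its order are not separated by the test.

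**Figure D2:**
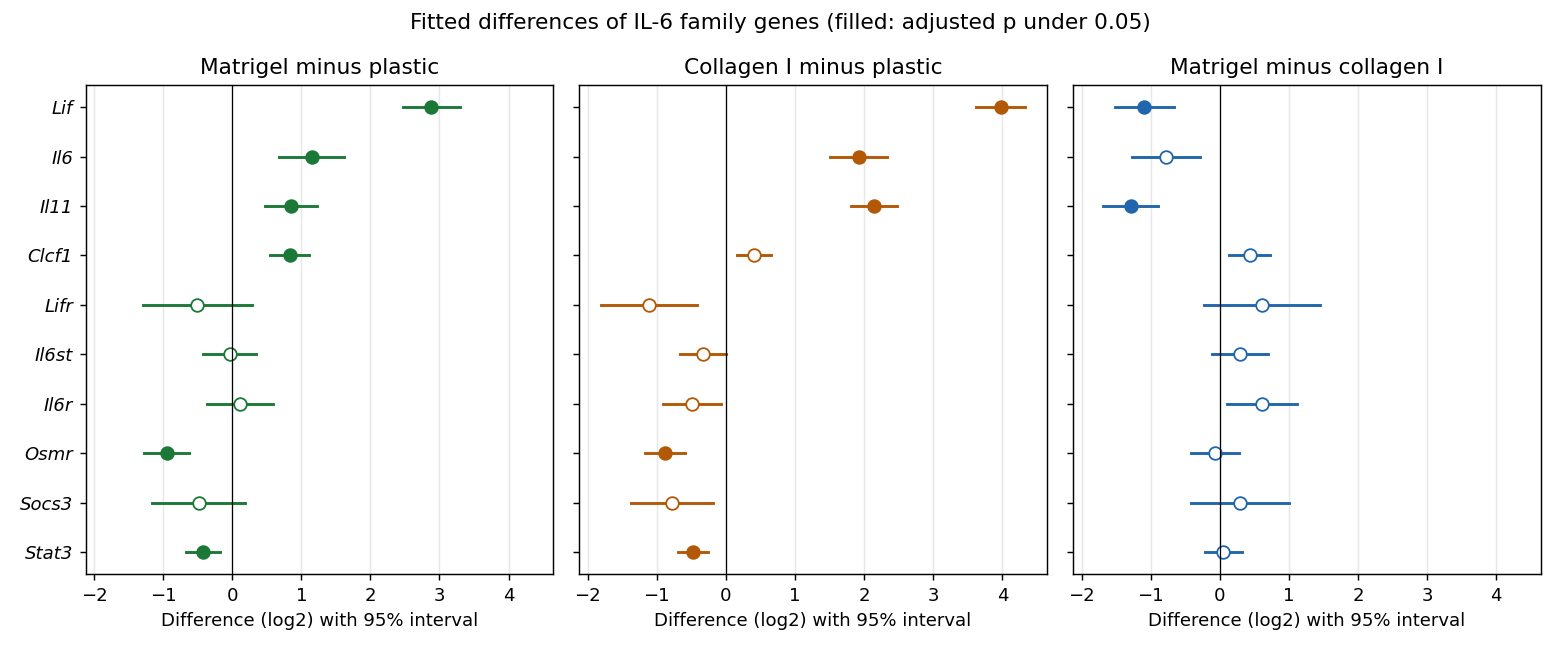
Fitted differences (log2) of the 10 members with their 95% intervals in the 3 comparisons, filled where the adjusted p is under 0.05. Against plastic the ligand points run from 0.40 to 3.97 and those of the receptors, Socs3 and Stat3 from -1.12 to 0.12, and intervals that leave out 0 beside an open point passed before but not after adjustment over all genes.

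Of the 4 receptor chains, Osmr fell on both matrices and the others did not pass in any comparison. Osmr (Entrez gene 310132), the signal-transducing chain that binds oncostatin M with gp130, read 9.40 and 9.91 on Matrigel, 9.86, 9.73 and 9.57 on collagen I, and 10.72, 10.60, 10.57 and 10.51 on plastic. Every matrix array lay below every plastic array, and the 2 matrices overlapped. Osmr fell by 0.95 ± 0.14 on Matrigel (adjusted p = 0.00474) and by 0.88 ± 0.13 on collagen I (adjusted p = 0.00459), and both calls were kept under all 19 alternatives. The fall within letters was -1.32 for A and -0.66 for S on Matrigel, and -0.86, -0.87 and -0.94 for A, P and Z on collagen I. The matrices differed by -0.07 (95% interval -0.41 to 0.27, adjusted p = 0.873).

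Lifr (Entrez gene 81680), the receptor chain for LIF, read 5.92 and 7.03 on Matrigel, 6.26, 5.79 and 5.55 on collagen I, and 7.15, 6.44, 7.34 and 7.0 on plastic. Every collagen array lay below every plastic array, whereas the Matrigel arrays lay 1.11 apart and overlapped the plastic range. The difference was -1.12 ± 0.31 on collagen I (adjusted p = 0.0754) and -0.51 ± 0.35 on Matrigel (adjusted p = 0.442). On collagen I it passed under 5 of 19 alternatives, with adjusted p = 0.0425 in a fit of only the 2 compared surfaces, and reached 0.22 under others. Leaving out Matrigel array A moved the Matrigel difference to 0.05.

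Il6st (Entrez gene 25205), the shared gp130 chain, read 11.28 and 11.41 on Matrigel, 11.31, 11.17 and 10.66 on collagen I, and 11.54, 11.31, 11.39 and 11.27 on plastic. Its differences from plastic were -0.04 on Matrigel (95% interval -0.42 to 0.35, adjusted p = 0.939) and -0.33 on collagen I (interval -0.67 to 0.01, adjusted p = 0.274). Its collagen arrays spread over 0.65, with array Z lowest. Il6r (Entrez gene 24499), the alpha receptor that binds IL-6, read 5.62 and 5.96 on Matrigel, 5.11, 4.99 and 5.43 on collagen I, and 5.72, 5.45, 6.10 and 5.42 on plastic. It differed from plastic by 0.12 ± 0.21 on Matrigel (adjusted p = 0.814) and by -0.50 ± 0.18 on collagen I (adjusted p = 0.181). Collagen arrays A and P lay below all plastic arrays, and array Z lay just inside the plastic range.

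Stat3 (Entrez gene 25125), the transcription factor of the pathway, was lower on both matrices by a small amount. It read 9.12 and 9.53 on Matrigel, 9.34, 9.30 and 9.18 on collagen I, and 9.74, 9.77, 9.77 and 9.71 on plastic, where the arrays lay within 0.06 of each other. It fell by 0.42 ± 0.11 on Matrigel (adjusted p = 0.0449) and by 0.47 ± 0.10 on collagen I (adjusted p = 0.0232), which is 1.34-fold and 1.39-fold lower. These calls are marginal. That on Matrigel was lost under 13 of 19 alternatives (adjusted p from 0.0512 to 0.222), including without any 1 collagen or plastic array and without Matrigel array A, where the difference was -0.21. That on collagen I was lost under 8 (0.0506 to 0.0886), including without any 1 collagen or plastic array. It was also lost with the title letter as a fixed replicate block (0.0561), though not as a random one.

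Socs3 (Entrez gene 89829), the feedback inhibitor that STAT3 induces, read 7.18 and 7.91 on Matrigel, 7.69, 7.32 and 6.73 on collagen I, and 8.31, 7.81, 8.22 and 7.76 on plastic. All collagen arrays lay below all plastic arrays, and the Matrigel array of letter S lay inside the plastic range. The differences of -0.48 ± 0.30 on Matrigel (adjusted p = 0.384) and -0.78 ± 0.26 on collagen I (adjusted p = 0.142) did not pass. The Matrigel difference was -0.119 without Matrigel array A and -0.842 without array S. Set against the plastic array of the same letter, Socs3 differed by -1.12 and -0.31 on Matrigel and -0.61, -0.49 and -1.02 on collagen I.

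**Figure D3:**
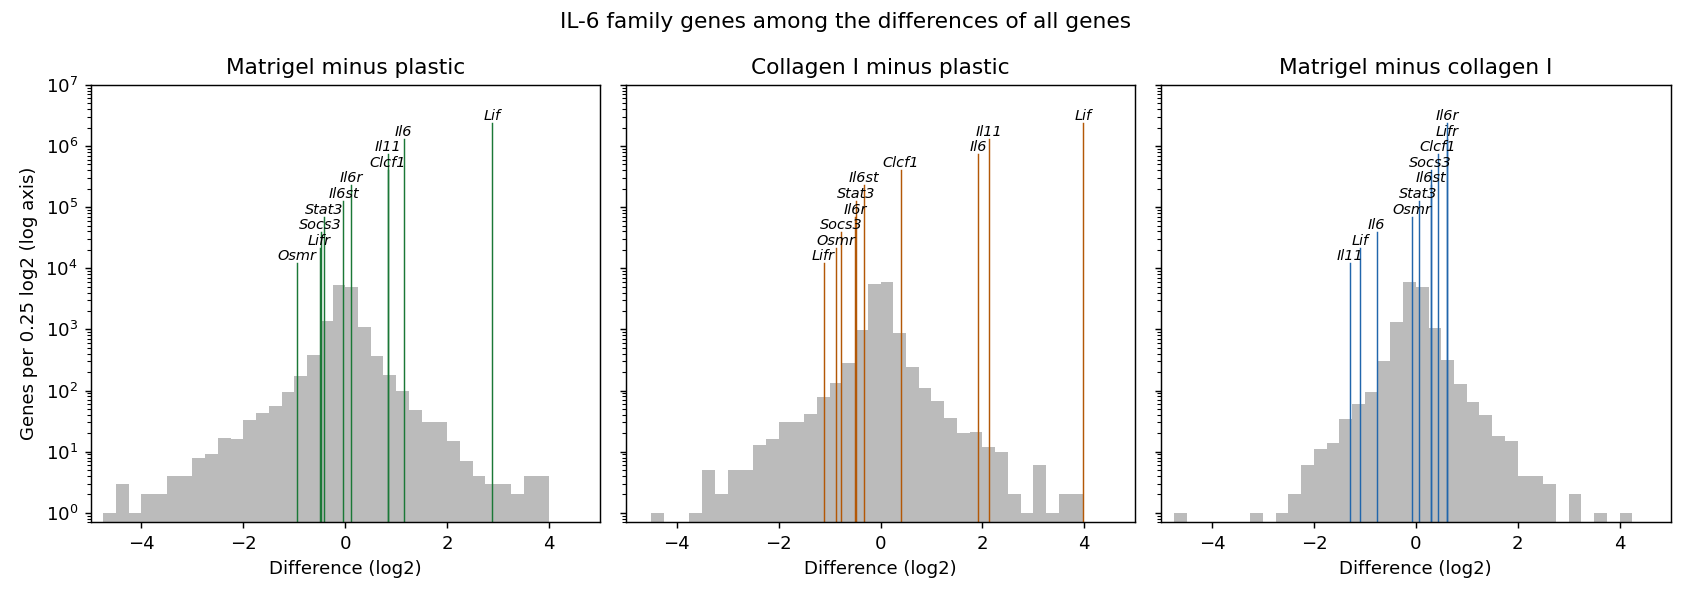
Number of genes by fitted difference (log2, bins of 0.25, log axis) among all 14506 genes in the 3 comparisons, with lines at the 10 members, whose heights only separate the labels. Lif stands at the right end on collagen I minus plastic (3.97), with Il11 (2.14) and Il6 (1.92) in the right tail.

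Counting genes whose arrays do not overlap between 2 surfaces, 6 of 10 members were separate between Matrigel and plastic (30.2% of all genes), 8 of 10 between collagen I and plastic (17.2%) and 5 of 10 between Matrigel and collagen I (29.5%). On collagen I array A was highest and array Z lowest for Lifr, Il6st, Osmr, Socs3 and Stat3, while Il6r was highest in Z and lowest in P. On plastic Il6st, Osmr and Socs3 were highest in A and lowest in Z, Il6r and Stat3 highest in S and lowest in Z, and Lifr highest in S and lowest in P. On Matrigel array S was above array A for these 6 genes and for Il6, by 0.13 to 1.11, while array A was above array S for Lif, Il11 and Clcf1, by 0.10 to 0.48.

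Genes whose level followed a member most closely were found by the root mean square difference between the 2 profiles over 9 arrays, each centred on its own mean, among 8702 other genes above the dim level. Lif was followed most closely by Ptgs2, the cyclooxygenase gene of prostaglandin synthesis (0.427, where Lif itself varied by 1.813 about its mean), then by Foxq1 (0.494) and Rasd1 (0.589). Ptgs2 averaged 10.17 on Matrigel, 10.60 on collagen I and 7.48 on plastic. Il6 was followed by Nfkbiz, an NF-kB cofactor needed for Il6 induction in mouse macrophages (0.247), by the protease gene Adamts4 (0.252) and by the transcription factor gene Ets2 (0.260). Il11 was followed by Scarf2, Nr4a2 and Vgll4 (0.231 to 0.232). The nearest profile to Clcf1 was that of Piezo1, a stretch-activated ion channel gene (0.076), at 9.02 on Matrigel, 8.65 on collagen I and 8.19 on plastic, followed by Arhgap32 (0.109) and Afdn (0.131). Osmr was nearest to Man1a1 (0.073), P4ha2 (0.106) and Otulinl (0.107), and Stat3 to Snx30 (0.061), Rap1a (0.062) and Slc39a11 (0.075). These are descriptions of likeness over the arrays and carry no test.

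The rest of the pathway was read from 6 lists of 91 genes, of which 79 were tested. Of the 79, 11 rose and 5 fell on Matrigel against plastic (20.3%, beside 10.4% of all genes), and 14 rose and 7 fell on collagen I (26.6%, beside 6.12%). Between Matrigel and collagen I 3 were higher and 5 lower on Matrigel (10.1%, beside 2.67%). Without Matrigel array A, 8 of the 79 and 759 of all genes changed on Matrigel against plastic, in place of 16 and 1504, and without plastic array A 10 and 989. Without collagen array P, 2 of the 79 and 68 of all genes changed between Matrigel and collagen I, in place of 8 and 387. With only the compared arrays these last counts were 0 and 0 by limma, with 2094 of all genes at an unadjusted p under 0.05. The median difference of the 79 was 0.04 on Matrigel and 0.03 on collagen I against plastic, and 0.00 between the matrices. The shares of all genes given throughout include genes with a mean under the dim level. With only genes above it tested, 1632 changed on Matrigel and 1044 on collagen I against plastic, and 462 between the matrices. The share of changed genes is thus higher among genes above the dim level than among all genes.

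Among 6 other ligands of the family, none changed on Matrigel by limma, where 10.4% of all genes did (2 had an unadjusted p under 0.05). On collagen I 1 rose, Cntf, the ciliary neurotrophic factor gene (16.7%, beside 6.12% of all genes). Cntf read 4.50, 4.36 and 4.18 on collagen I and 3.98, 3.69, 3.82 and 3.72 on plastic. The fitted rise was 0.54 ± 0.11 (adjusted p = 0.0241). Cntf was dim on plastic, and with its plastic values raised to the dim level the rise was only 0.098, which was not tested. The call was lost without collagen array A or P or plastic array P, S or Z (adjusted p from 0.0540 to 0.0879). The oncostatin M gene Osm, the ligand of Osmr, read 5.86 and 5.82 on Matrigel, 5.38, 4.91 and 5.74 on collagen I, and 5.41, 4.70, 5.54 and 4.55 on plastic. It did not pass on Matrigel (0.79 ± 0.31, adjusted p = 0.169) and was named after its values were seen. Of 4 other receptors none changed in any comparison, where 10.4%, 6.12% and 2.67% of all genes did. By limma the unadjusted p was under 0.05 for 2, 0 and 0 of them. The order is Matrigel against plastic, collagen I against plastic and Matrigel against collagen I. Lists of 4 to 6 genes are too short for these counts to set them apart from all genes.

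Of 11 kinases, STAT factors and adaptors, 1 rose and 1 fell on Matrigel (18.2% changed, beside 10.4% of all genes). On collagen I 1 fell (9.1%, beside 6.12%). Genes above the dim level changed more often than all genes, so these shares do not set the list apart. Jak1, the main kinase bound to gp130, fell by 0.51 ± 0.10 on collagen I (adjusted p = 0.0212) and differed by -0.39 ± 0.12 on Matrigel (adjusted p = 0.0736). Gab1, an adaptor that links gp130 to MAP kinase signalling, rose by 0.86 ± 0.16 on Matrigel (adjusted p = 0.0133). Stat2, an interferon pathway factor, fell by 1.12 ± 0.28 on Matrigel (adjusted p = 0.0409). Stat5a was 0.84 ± 0.15 higher on Matrigel than on collagen I (adjusted p = 0.0288). The Jak1 call on collagen I was lost without collagen array A, P or Z or plastic array A or Z (0.0526 to 0.0809), that of Stat2 under 10 of 19 alternatives, with collagen array P or Z, Matrigel array A or plastic array A, S or Z left out among them (0.0558 to 0.263), and that of Stat5a under 9, including without any 1 collagen array, Matrigel array S or plastic array A, P or Z (0.0536 to 0.186), while that of Gab1 was kept under all 19.

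The list of negative regulators, which also holds the receptor-shedding protease gene Adam17, had 15 tested genes. Of these 0 changed on Matrigel by limma, where 10.4% of all genes did (4 had an unadjusted p under 0.05). On collagen I 1 rose, Adam17, and 1 fell (13.3%, beside 6.12% of all genes). Adam17, the protease that sheds the IL-6 receptor from the cell surface, rose by 0.77 ± 0.15 on collagen I (adjusted p = 0.0217). Ptpn1, a phosphatase that acts on JAK kinases, fell by 0.42 ± 0.07 (adjusted p = 0.0126). Adam17 did not pass without collagen array A or Z or plastic array P or S (0.0527 to 0.0838), nor Ptpn1 without collagen array P or Z (0.0524 to 0.0561).

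Of 29 genes known to be induced by STAT3, 5 rose and 4 fell on Matrigel (31.0%, beside 10.4% of all genes; median difference 0.09), and 5 rose and 4 fell on collagen I (31.0%, beside 6.12%; median 0.00). Fos, an immediate-early gene and AP-1 subunit, read 5.13 and 5.58 on Matrigel, 7.70, 7.94 and 7.37 on collagen I, and 4.98, 5.06, 5.12 and 5.36 on plastic. It rose by 2.53 ± 0.16 on collagen I (adjusted p = 0.000143) and was 2.32 ± 0.19 lower on Matrigel than on collagen I (adjusted p = 0.00380), with Matrigel and plastic overlapping. Ccnd1, the cyclin D1 gene, rose by 1.84 ± 0.33 on Matrigel (adjusted p = 0.0103) and by 2.06 ± 0.29 on collagen I (adjusted p = 0.00438). The AP-1 gene Junb rose by 0.58 ± 0.11 on Matrigel and by 0.81 ± 0.10 on collagen I (adjusted p = 0.0130 and 0.00209).

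Of the same list, Klf4 and Ifitm1 fell on both matrices, whereas Sbno2 and Bcl2l1 rose on Matrigel. Klf4, a Kruppel-like transcription factor gene, read 6.51 and 6.26 on Matrigel, 8.03, 7.61 and 7.49 on collagen I, and 8.87, 8.80, 9.01 and 8.47 on plastic. It fell by 2.40 ± 0.18 on Matrigel (adjusted p = 0.000319) and by 1.08 ± 0.16 on collagen I (adjusted p = 0.00582), and was 1.32 ± 0.19 lower on Matrigel than on collagen I (adjusted p = 0.0153). Ifitm1, also an interferon-induced gene, fell by 1.28 ± 0.22 on Matrigel and by 1.90 ± 0.19 on collagen I (adjusted p = 0.00877 and 0.000922). Sbno2, a target of IL-10 and STAT3, read 8.98 and 9.14 on Matrigel, 8.27, 8.34 and 8.22 on collagen I, and 8.24, 8.12, 8.30 and 7.90 on plastic, and so stood apart on Matrigel. It was 0.92 ± 0.12 above plastic (adjusted p = 0.00223) and 0.78 ± 0.12 above collagen I (adjusted p = 0.0179). Bcl2l1, the survival gene of BCL-xL, rose by 0.42 ± 0.10 on Matrigel (adjusted p = 0.0299) and was 0.58 ± 0.10 above collagen I (adjusted p = 0.0288). On Matrigel against plastic the Ccnd1 call was lost without Matrigel array A and that of Junb without array S. That of Bcl2l1 was lost under 7 of 19 alternatives. These were the title letter as a fixed, not a random, replicate block, and leaving out either Matrigel array, collagen array P or plastic array A, P or Z.

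The last list held 14 genes of the signals and transcription factors upstream of IL-6 family cytokine genes, including the NF-kB inhibitor gene Nfkbia. On Matrigel 5 rose and 0 fell (35.7%, beside 10.4% of all genes, median difference 0.25). On collagen I 7 rose and 1 fell (57.1%, beside 6.12%, median 0.64). The lists were chosen with earlier results of these data known, so these shares are not tests. The gene that fell was Tnfrsf1a, by 0.46 ± 0.08 (adjusted p = 0.0125), named after its values were seen. Nfkbiz read 8.55 and 8.92 on Matrigel, 9.55, 9.70 and 9.65 on collagen I, and 7.50, 7.56, 7.56 and 7.79 on plastic. Its order was that of Lif and Il6, with a rise of 1.14 ± 0.12 on Matrigel (adjusted p = 0.00122) and of 2.03 ± 0.11 on collagen I (adjusted p = 4.80e-05), and a difference of -0.89 ± 0.13 between Matrigel and collagen I (adjusted p = 0.0145). Jun, the AP-1 subunit, read 6.59 and 6.40 on Matrigel, 7.80, 8.11 and 8.24 on collagen I, and 5.59, 5.67, 5.83 and 6.09 on plastic. It rose by 0.70 ± 0.16 on Matrigel (adjusted p = 0.0279) and by 2.26 ± 0.14 on collagen I (adjusted p = 0.000143). Il1a, the interleukin 1 alpha gene, read 6.74 and 6.78 on Matrigel, 8.14, 8.38 and 9.28 on collagen I, and 7.03, 6.23, 7.27 and 6.44 on plastic. It rose by 1.86 ± 0.32 on collagen I (adjusted p = 0.0104) and was 1.84 ± 0.38 lower on Matrigel than on collagen I (adjusted p = 0.0448). Nfkbia rose by 1.22 ± 0.24 on Matrigel and by 1.50 ± 0.21 on collagen I (adjusted p = 0.0141 and 0.00408), and Tgfb1, the transforming growth factor beta 1 gene, by 1.76 ± 0.36 and 2.41 ± 0.32 (adjusted p = 0.0169 and 0.00313).

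On Matrigel against plastic the calls of Tgfb1, Nfkbia and Jun were lost when 1 Matrigel array was left out (Tgfb1 without A, adjusted p = 0.135, and Nfkbia without either, 0.0722 to 0.0818). That of Jun was lost without either Matrigel array, without plastic array A or P and with array weights (0.0519 to 0.168). On collagen I the calls of Nfkbiz, Jun, Il1a, Nfkbia, Tgfb1, Fos, Ccnd1, Junb, Klf4 and Ifitm1 were kept under all 19 alternatives. With only the Matrigel and collagen I arrays in the fit, every call between those surfaces that is named here was lost (adjusted p from 0.119 to 0.186). Between those surfaces the call of Klf4 was also lost without collagen array P or Matrigel array S, that of Nfkbiz without collagen array P or Matrigel array A, and that of Sbno2 without collagen array P or Z or either Matrigel array. Those of Bcl2l1 and Il1a were lost under 8 and 12 alternatives, including without either Matrigel array, collagen array P or Z, or plastic array A or Z, and for Il1a also collagen array A or plastic array P. With the title letter as a fixed replicate block, the calls of Nfkbiz, Sbno2, Bcl2l1, Il1a and Stat5a between those surfaces were lost too. They were kept with the letter as a random block.

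**Figure D4:**
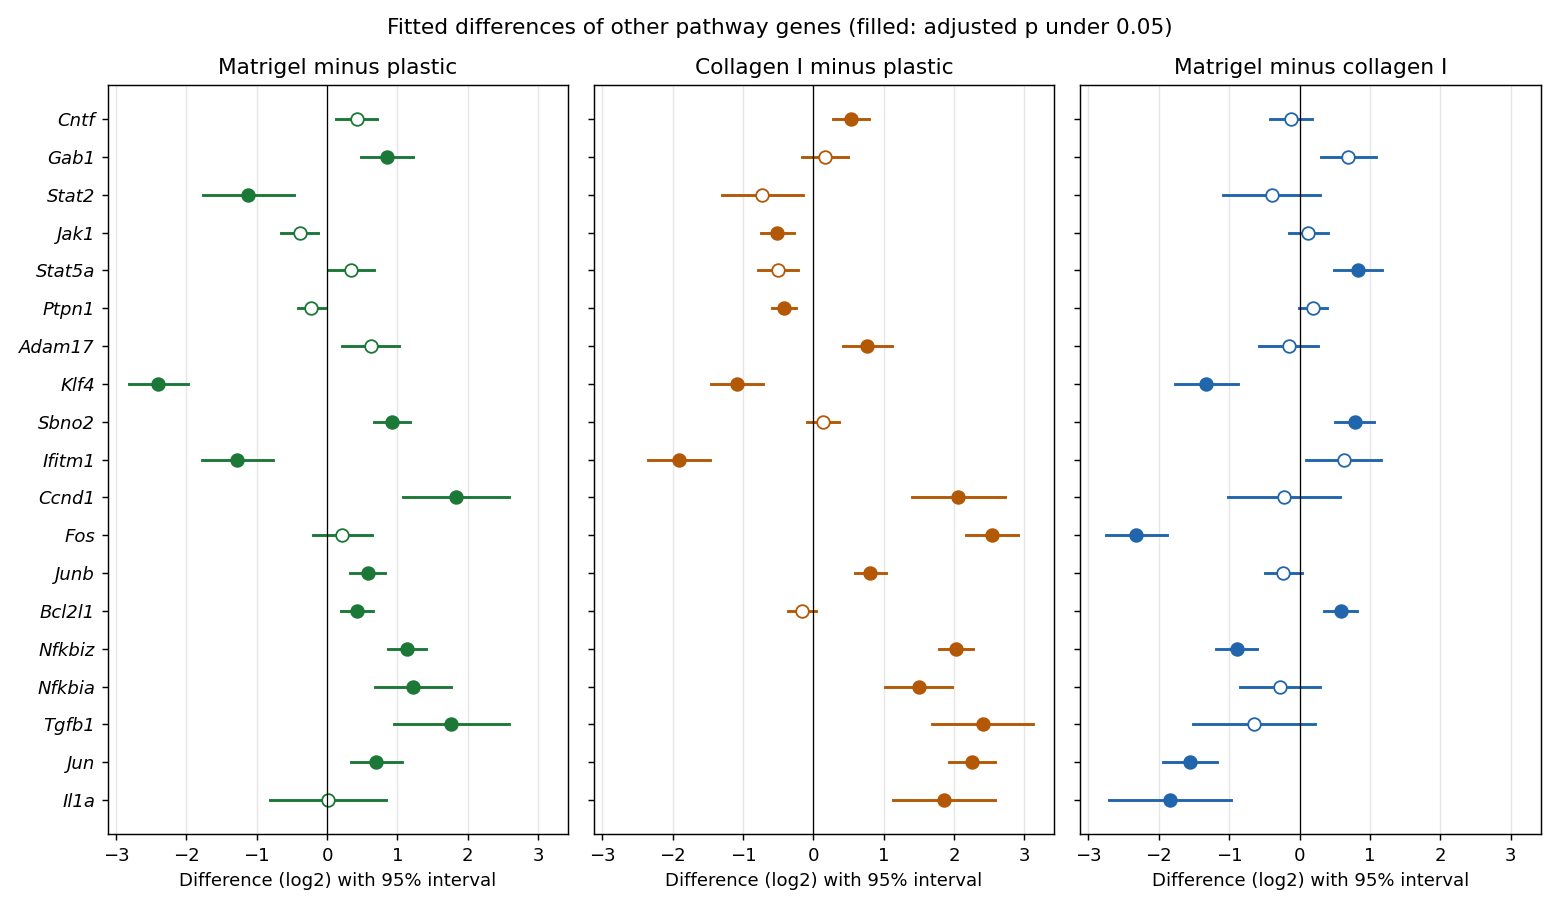
Fitted differences (log2) with 95% intervals of the 19 other pathway genes named by rule, in the 3 comparisons, filled where the adjusted p is under 0.05. Fos, Jun and Il1a lie at 1.86 to 2.53 on collagen I minus plastic and at 0.02 to 0.70 on Matrigel minus plastic, and Klf4 lies at -2.40 and -1.08.

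On Matrigel against plastic, where 4.52% of all genes rose and 5.85% fell, 8 of 14 islet markers (57.1%, median difference 1.70) and 6 of 11 adipocyte markers (54.5%, median 0.74) rose. Of 17 acinar markers 3 rose (17.6%, median 0.54). Of 22 macrophage markers 1 rose (4.5%, the share of all genes), with a median of 0.93. By limma 10 of the 22 had an unadjusted p under 0.05, beside 3503 of all 14506 genes. The arrays of 12 of the 22 did not overlap between the surfaces (30.2% of all genes). Of 19 stellate cell markers 5 fell (26.3%). The abundant macrophage genes Cd14 and Cybb averaged 11.29 and 10.37 on Matrigel against 10.29 and 9.18 on plastic, without passing (adjusted p = 0.116 and 0.133). The part of these cells in the differences of Lif, Il6, Il11, Clcf1, Osmr and Stat3 on Matrigel was not tested. On collagen I against plastic, 0 of 22 macrophage, 14 islet, 17 acinar, 11 endothelial and 11 adipocyte markers changed by limma, beside 6.12% of all genes. Of these lists 3, 0, 1, 0 and 0 had an unadjusted p under 0.05, with medians of -0.28, 0.10, 0.08, 0.00 and 0.06. Of 4 mesothelial markers 1, Wt1, fell on both matrices, to 7.25 on Matrigel and 7.29 on collagen I against 8.31 on plastic (adjusted p = 0.00600 and 0.00490).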

How the data were processed

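The deposited log2 values come from RMA (background correction, quantile normalization, probe set summary), per the submitters' processing notes. The software and its version are not named in the labels. Values lay between 0.976 and 13.8. Nothing was normalized again.

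Of 29215 entries, 15310 had 1 symbol in the array's probe table, 323 several and 13582 none. The entry with the highest mean was kept per gene (804 left out), giving 14506 genes. RefSeq identifiers matched 14480. limma 3.58.1 in R 4.3.3 fitted 1 mean per surface over 9 arrays (6 residual degrees of freedom), with Benjamini-Hochberg adjustment within each of 3 comparisons. The method was tested on simulated data. The number of arrays limits the precision.

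All 10 members are named. Other pathway genes were named when called with separate groups, up to 4 per list and comparison by p. Members and lists were chosen with earlier results of these data known. Cell type lists held stellate, macrophage, lymphocyte, endothelial, acinar, islet, duct, adipocyte and mesothelial markers. Of 9 duct and 11 lymphocyte markers 0 were called in any comparison with plastic, beside 10.4% of all genes on Matrigel and 6.12% on collagen I. By limma 4 and 1 had an unadjusted p under 0.05 on Matrigel, and 0 and 0 on collagen I. Of 11 endothelial markers 1 rose and 1 fell on Matrigel (18.2%).

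Deviations from the surface means were correlated for same-letter pairs of a collagen and a plastic array (r = 0.196, 0.234 and 0.269). Different-letter pairs of these surfaces gave -0.243 to 0.243, the highest for collagen array A with plastic array S. Same-letter pairs of a Matrigel and a plastic array gave -0.131 and 0.406, and different-letter pairs -0.406 to 0.311. The deviations of 2 Matrigel arrays are exact opposites, so each value recurs with its sign reversed and the 2 kinds of pair are not independent. These values do not settle whether the letters mark pairs, and the main fit has no letter term. Alternatives were re-centring, repeated quantile normalization, a filter on dim genes, all entries, mean entries, the 2 compared groups only, trend with robust moderation, array weights, letter blocks, a minimum difference of 1, and each array left out in turn.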

Additional observations from a re-analysis of the deposited data

Results flagged for a closer look

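Among 29 sets of 4 plastic arrays, 1 held a value far from the others. Il11 read 4.72 on the plastic array of letter P, while the other plastic arrays read 4.93 to 4.96, a gap of 0.858 of the range. Chance marks about 1 in 20 such sets. Without that array the rises of Il11 passed as before.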

How the results depend on the processing

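Over 570 recomputed differences of the 10 members, 516 kept direction and side of the threshold, 32 lost a call, 11 gained one and 11 changed sign. Over 1080 of the 19 other named genes these numbers were 964, 87, 17 and 12. The cause of these changes was not tested, except that requiring a minimum difference lowers counts by construction. With a difference of at least 1 also required, 2 members, 8 other pathway genes and 431 of all genes passed on Matrigel against plastic, 3, 10 and 316 on collagen I against plastic, and, of other pathway and all genes, 4 and 98 on Matrigel against collagen I. With only the compared arrays, 0 members, 0 other pathway genes and 0 genes by limma passed between Matrigel and collagen I, although 2094 genes had an unadjusted p under 0.05 in that fit. With the title letter as a fixed replicate block these counts were 0, 3 and 66, and with it as a random block 2, 9 and 464. Array weights gave 257 genes. Leaving out each array in turn gave 4 to 5 members, 8 to 14 other pathway genes and 759 to 1461 genes on Matrigel against plastic (759 without Matrigel array A, 989 without plastic array A), 4 to 6, 16 to 22 and 552 to 870 on collagen I against plastic (555 without collagen array P, 552 without plastic array A), and 0 to 3, 2 to 9 and 68 to 352 on Matrigel against collagen I (68 without collagen array P). A lone Matrigel array is then assumed to vary like the other groups. Signs turned only for differences that had not passed. On Matrigel against plastic, Il6st was 0.042 after repeated quantile normalization and Il6r was -0.05 with the fixed replicate block. Il1a was -0.046 there after re-centring, -0.13 with the fixed and -0.011 with the random replicate block. On Matrigel against collagen I the fixed block gave -0.15 for Socs3, -0.034 for Stat3 and 0.298 for Ccnd1. Leaving out single arrays moved the Matrigel minus plastic difference of Lifr between -1.059 and 0.049, of Il6st between -0.1 and 0.029, of Il6r between -0.057 and 0.291, of Fos between -0.006 and 0.444 and of Il1a between -0.156 and 0.193. For Matrigel minus collagen I the ranges were -0.325 to 0.186 for Osmr, -0.067 to 0.656 for Socs3, -0.152 to 0.261 for Stat3, -0.266 to 0.026 for Cntf, -0.007 to 0.257 for Jak1, -0.368 to 0.064 for Adam17 and -0.568 to 0.119 for Ccnd1.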
